A study of Mus musculus with 6 samples.

Results

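The oligoadenylate synthetase (Oas) family was followed gene by gene in mouse 4T1 breast carcinoma cells in which a LINE-1 (L1) retrotransposon can be switched on with doxycycline. The family was taken as the 8 gene symbols Oas1a, Oas1b, Oas1c, Oas1g, Oas2, Oas3, Oasl1 and Oasl2, out of 24421 genes in the count table. All 8 passed edgeR's filter on low counts, together with 13084 genes in all. The cells, 4T1-tetL1(GLucAI), were sequenced as total RNA in 3 untreated libraries and 3 libraries from cells given 400 ng/mL doxycycline over 48 h, and the study calls the 3 libraries of a group biological triplicates. The labels give the strain as BALB/cfC3H, and they call the untreated group vehicle in another field. The line was made to study how L1 expression bears on the share of drug-resistant cells, and these libraries compare its transcriptome with and without induction.

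Every library came from the same modified line, so the untreated cells carried the cassette as well. It was integrated by PiggyBac transposition and selected with blasticidin. It holds a Tet-On 3G transactivator driven by the EF1α promoter and a bidirectional TRE3G promoter that drives a recoded mouse L1 on one side and firefly luciferase on the other. Cells without the cassette that received doxycycline were not among the libraries, so effects of the drug and of L1 cannot be told apart. The cassette transcript, which would check the labels, was not analysed here, and each direction below rests on the labels.

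Oas proteins are interferon-induced sensors of double-stranded RNA. When RNA binds, they link ATP into short 2′-5′ oligoadenylates (2-5A), a second messenger that sets off the decay of viral and cellular RNA. Mice carry a row of Oas1 copies in place of the single human gene. Oas1a and Oas1g are active synthetases. Oas1b, known as the flavivirus resistance gene, is truncated in most laboratory strains, while Oas2 and Oas3 are larger enzymes built of repeated Oas units. Oasl1 and Oasl2 carry ubiquitin-like domains at their ends. Oasl2 makes 2-5A, whereas Oasl1 does not and is known as a translational repressor of Irf7, the transcription factor that amplifies interferon production.

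All 8 genes lie on chromosome 5, in a pair of clusters. On the GRCm38 assembly (RefSeq positions), Oasl2 (chr5:114896926-114912245) and Oasl1 (chr5:114923143-114937911) form the first, which spans 40986 bases on the plus strand. The second spans 191316 bases and holds 10 genes. Oas2 (chr5:120730333-120749886), Oas3 (chr5:120753098-120777684), Oas1c (chr5:120800194-120812540), Oas1g (chr5:120876142-120887613) and Oas1a (chr5:120896256-120907544) are on the minus strand. Oas1b (chr5:120812635-120824163) is on the plus strand and begins 94 bases beyond the end of the Oas1c gene record. RefSeq lists Oas1b as a transcribed pseudogene and GENCODE M21 as a polymorphic pseudogene, while the other members are protein coding in both.

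**Figure D1:**
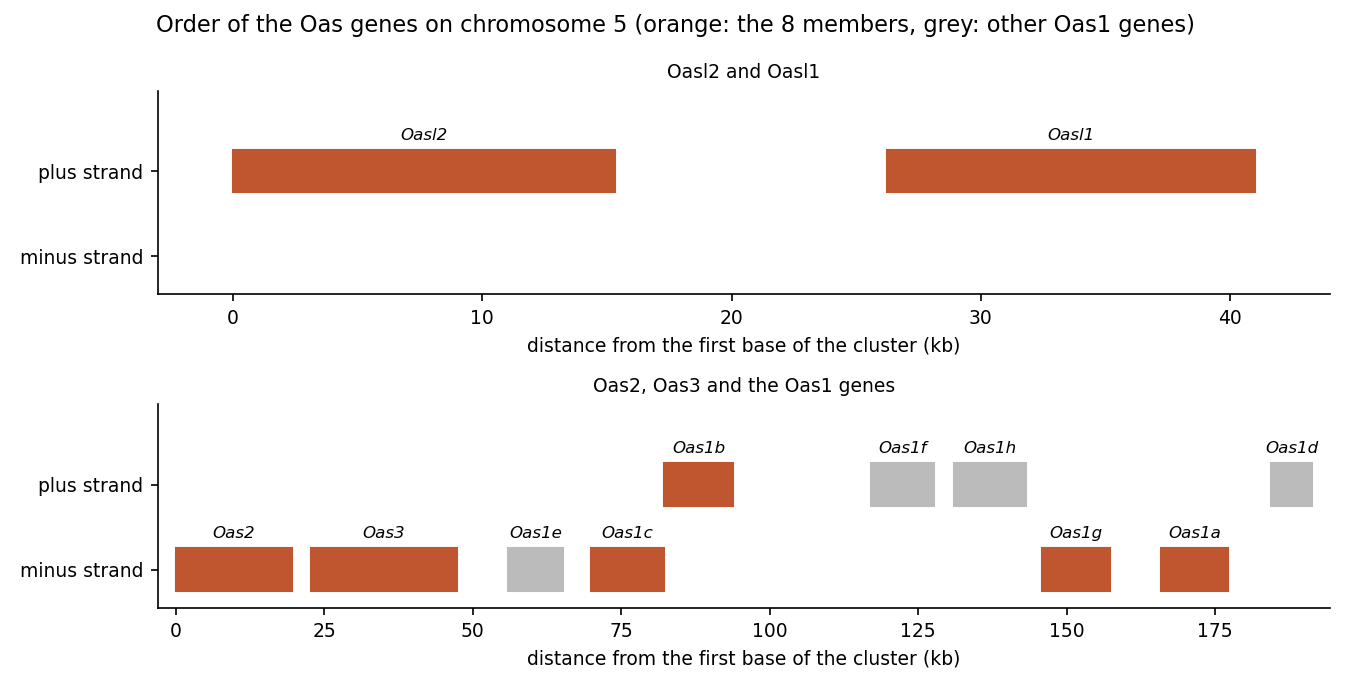
Order and strand of the 12 Oas genes of the table on chromosome 5, as distance in kb from the first base of each cluster. Boxes are RefSeq gene records (orange, the 8 members; grey, Oas1d, Oas1e, Oas1f and Oas1h). Oas1b and Oas1c stand back to back, 94 bases apart.

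The near-identity of the Oas1 copies bears on how their counts may be read. The first 60 coding bases of 4 Oas1 members are printed here as an example of how closely the copies match (GENCODE M21 transcripts on GRCm38, positions 1 to 60 of the coding sequence, capitals mark bases that differ from Oas1a).
Oas1a: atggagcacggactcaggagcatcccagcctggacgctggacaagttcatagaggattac
Oas1g: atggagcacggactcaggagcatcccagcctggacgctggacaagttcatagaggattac
Oas1b: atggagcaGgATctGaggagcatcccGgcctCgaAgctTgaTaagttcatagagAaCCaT
Oas1c: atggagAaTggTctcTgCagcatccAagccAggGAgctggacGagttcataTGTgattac
Oas1g matched Oas1a at every base of this stretch, while Oas1b and Oas1c each differed at 13 bases. Over their 1101 coding bases, Oas1a and Oas1g were 96.7% identical, and the longest run without a difference was 231 bases. Over the transcripts the longest shared run was 526 bases. Identity of Oas1a was 81.4% to Oas1b and 76.2% to Oas1c, and it fell to between 60.5 and 64.5% for Oas2, Oas3, Oasl1 and Oasl2.

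Of all 100-base stretches in the transcript of Oas1a, 40.9% also occur in Oas1g, and 31.2% of those of Oas1g also occur in Oas1a. At 50 bases the shares were 57.6% and 45.2%. The handling of reads that fit several genes is not given in the sources used here, so counts of Oas1a and Oas1g are uncertain to that extent. Oas1b shared no 100-base stretch with any other gene. Oas1c shared 4.23%, with Gm43069, a gene annotated on the opposite strand that overlaps 227 bases of its exons and is not in the count table. Oasl1 overlaps Gm13822 on the opposite strand by 38 exonic bases. Oas2, Oas3, Oasl1 and Oasl2 shared no 100-base stretch. At 50 bases, Oas1c shared 15.1% and Oas1b 2.98% with any other gene, and Oas2, Oas3, Oasl1 and Oasl2 at most 0.521%.

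The sequence just before Oas1a, Oas1g and Oas1b held a shared match to the core of an interferon element. The interferon-stimulated response element (ISRE) is the DNA sequence through which type I interferon signals reach many of their target genes. Its core was searched as GAAANNGAAA on both strands in the RefSeq promoter table of GRCm38, from 250 bases before to 50 bases after each start. That table matched 6 of the 8 members, the exceptions being Oas1b and Oas2. The core occurred in the windows of Oas1a, Oas1c, Oas1g and Oas3, 4 of 6, and in 3.44% of all 32851 promoters. The gamma-activated site, searched as TTCNNNGAA, occurred in the window of Oas1a alone among the 6 and in 8.3% of all promoters. The stretches around the ISRE cores are shown 5′ to 3′ on the strand of the named gene, with matching bases in capitals.
Oas1a (chr5:120907526-120907580, minus): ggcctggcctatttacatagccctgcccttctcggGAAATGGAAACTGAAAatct
Oas1g (chr5:120887614-120887666, minus): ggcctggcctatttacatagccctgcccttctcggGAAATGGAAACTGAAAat
Oas1b (chr5:120812578-120812634, plus): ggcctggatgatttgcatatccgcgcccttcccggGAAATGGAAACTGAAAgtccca
Oas3 (chr5:120777690-120777769, minus): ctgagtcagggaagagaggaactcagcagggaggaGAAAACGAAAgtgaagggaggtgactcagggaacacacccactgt

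In Oas1a and Oas1g a pair of overlapping cores formed a block of 16 bases that ended 5 and 3 bases before the start used by the table. The RefSeq gene record of Oas1a extends further, to base 120907544, and so reaches into this block. The same 16 bases lay in the Oas1c window on the opposite strand, 114 to 99 bases before the Oas1c start. Read from the other side, they ended 7 bases before the annotated start of Oas1b, and the stretch is therefore shown as Oas1b. Over the first 51 bases shown, Oas1a and Oas1g were identical, and Oas1b matched both at 43 bases. The 16-base block occurred in the promoter windows of 5 genes of the table, Oas1a, Oas1c, Oas1g, Apol9a and Apol9b. In Oas3 the core stood 75 to 66 bases before the start and was a different sequence. A match of letters is a description and not a binding site.

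Library totals ranged from 31653464 to 43631312 counts, and 3 counts corresponded to 0.0683 to 0.0944 CPM (counts scaled to one common library total after TMM), a limit that covers counting error only. Epithelial markers were high in every library, with the summed level of 6 markers between 1754 and 1983 CPM, most of it from Krt18, Krt8, Krt7 and Cdh1. One of the 6, Krt19, was called lower with doxycycline (63.5 ± 2.15 and 51.4 ± 4.22 CPM, SD, n = 3 each, edgeR adjusted p = 0.00782). Of 6 leukocyte markers, Adgre1 and Tyrobp had 0 counts in all libraries, and the list summed to 9.79 to 12.0 CPM in untreated and 9.27 to 11.5 CPM in doxycycline libraries, nearly all from Cd68. Fibroblast markers summed to 35.5 to 38.1 and 27.5 to 28.8 CPM, nearly all from Pdgfra, which was called lower with doxycycline, while Lum had 0 counts. The 3 endothelial markers together stayed under 0.68 CPM. In bulk RNA, fewer cells with a transcript and less transcript per cell cannot be told apart.

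None of the 8 Oas genes passed the threshold after doxycycline. At an adjusted p under 0.05, 0 of 8 members were called, beside 3.09% of all tested genes (edgeR quasi-likelihood test, Benjamini-Hochberg). DESeq2 and limma voom also called 0. At an unadjusted p under 0.05 there were 3, Oas1g, Oas2 and Oasl1, beside 16.2% of all genes. Fitted log2 fold changes were above 0 for 6 members and below 0 for Oas1b and Oas1c. The median was 0.23, beside 0.0025 over all tested genes. The spread between doxycycline libraries was wide for most of the family. Replicate 2 was the highest library for 6 members, and replicate 3 was the lowest of the doxycycline libraries for 7. With no filter on low counts 3 members passed the threshold, beside 649 of 17661 tested genes. All 3 were higher with doxycycline: Oas1a (edgeR adjusted p = 0.0135), Oas1g (0.0399) and Oas2 (0.0191).

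Oas1a, an active synthetase, had 20.7, 19.6 and 19.3 CPM in untreated replicates 1, 2 and 3, and 24.7, 30.8 and 18.5 CPM in doxycycline replicates 1, 2 and 3. The untreated libraries lay close together, while the doxycycline libraries ran from below all untreated values to above them, so the groups overlapped. The means were 19.9 ± 0.727 and 24.7 ± 6.13 CPM (SD, n = 3 each). This gave a log2 fold change of 0.31 with an SE of 0.14 and a 95% interval from -0.001 to 0.63 (edgeR adjusted p = 0.31).

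Oas1g, the copy closest to Oas1a, was the member whose groups stood apart. It measured 7.22, 7.46 and 7.69 CPM in the untreated libraries and 9.47, 11.7 and 8.33 CPM in the doxycycline libraries. Each doxycycline library was above each untreated library, which held for 1 of 8 members beside 21.3% of all tested genes. Means were 7.46 ± 0.236 and 9.82 ± 1.69 CPM (SD, n = 3 each), and the log2 fold change was 0.40 (SE 0.13, 95% interval 0.14 to 0.66, edgeR adjusted p = 0.0958). Reads shared with Oas1a may contribute to either gene. Summed over the 4 Oas1 members, levels were 35.4, 36.6 and 34.9 CPM in untreated and 41.9, 50.9 and 32.8 CPM in doxycycline libraries, and the summed groups overlapped.

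Oas1b and Oas1c had lower mean levels with doxycycline, without passing the test. Oas1b measured 3.83, 5.64 and 3.87 CPM in untreated libraries and 4.69, 4.65 and 2.90 CPM in doxycycline libraries. Untreated replicate 2 was the highest and doxycycline replicate 3 the lowest, and the groups overlapped, with means of 4.44 ± 1.03 and 4.08 ± 1.02 CPM (SD, n = 3 each). Its log2 fold change was -0.12 with an SE of 0.19 (edgeR adjusted p = 0.828). It turned positive without untreated replicate 2 (0.082) or doxycycline replicate 3 (0.079).

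Oas1c, whose window shares the ISRE block with Oas1b, measured 3.71, 3.93 and 4.03 CPM in untreated libraries. In doxycycline replicates 1, 2 and 3 it measured 3.05, 3.82 and 3.004 CPM. Replicate 2 lay among the untreated values, whereas the other doxycycline libraries lay below them. The means were 3.89 ± 0.163 and 3.29 ± 0.458 CPM (SD, n = 3 each). Doxycycline minus untreated was -0.24 on the log2 scale (SE 0.17, 95% interval -0.58 to 0.11, edgeR adjusted p = 0.519). Although Oas1b and Oas1c start back to back, their libraries were ordered differently.

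The other Oas1 copies had few or no counts. Oas1e and Oas1f had 0 counts in all 6 libraries, and Oas1d had at most 2. Oas1h had 13 to 25 counts, or 0.420 ± 0.0922 CPM untreated and 0.494 ± 0.124 CPM with doxycycline (SD, n = 3 each), and did not pass the test (log2 fold change 0.22, SE 0.42, edgeR adjusted p = 0.853). Its highest library was again doxycycline replicate 2, with 25 counts.

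With all 6 libraries, Oas2 had the largest fitted change of the family, while without doxycycline replicate 2 that of Oas1c was larger in size (-0.36 against 0.31). It measured 3.83, 5.25 and 3.63 CPM in untreated libraries and 6.23, 7.81 and 4.28 CPM in doxycycline libraries. Doxycycline replicate 3 lay within the untreated range, and the other doxycycline libraries lay above it. Means were 4.23 ± 0.881 and 6.11 ± 1.77 CPM (SD, n = 3 each). The log2 fold change was 0.54 (SE 0.19, 95% interval 0.13 to 0.94, edgeR adjusted p = 0.156).

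Oas3, the largest protein of the family, stood at 12.6, 17.4 and 14.4 CPM in untreated and at 15.8, 22.1 and 12.96 CPM in doxycycline libraries. Only doxycycline replicate 2 exceeded untreated replicate 2, so the groups overlapped. The means were 14.8 ± 2.39 and 16.9 ± 4.69 CPM (SD, n = 3 each). On the log2 scale the fitted change was 0.20 with an SE of 0.19 (edgeR adjusted p = 0.654), and it was -0.042 without doxycycline replicate 2.

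Of the Oas-like genes, Oasl1, the repressor of Irf7, measured 17.6, 15.5 and 19.3 CPM in untreated libraries and 18.8, 23.2 and 20.0 CPM in doxycycline libraries. Doxycycline replicate 1 lay below untreated replicate 3, and the other doxycycline libraries lay above every untreated library. Oasl1 was the one member among those with a log2 fold change above 0 whose doxycycline replicate 3 was not the lowest of its group. With means of 17.5 ± 1.87 and 20.7 ± 2.28 CPM (SD, n = 3 each), the log2 fold change was 0.25 (SE 0.097, 95% interval 0.046 to 0.45, edgeR adjusted p = 0.195).

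Oasl2, an active synthetase, had the highest counts of the family, with 1723, 1391 and 1661 in untreated and 1523, 2358 and 1453 in doxycycline libraries. These corresponded to 39.2, 41.7 and 44.4 CPM and to 47.9, 57.7 and 38.0 CPM. Doxycycline replicate 3 was the lowest and replicate 2 the highest of all 6 libraries. With means of 41.8 ± 2.56 and 47.9 ± 9.9 CPM (SD, n = 3 each), the log2 fold change was 0.20 (SE 0.13, 95% interval -0.086 to 0.48, edgeR adjusted p = 0.495).

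**Figure D2:**
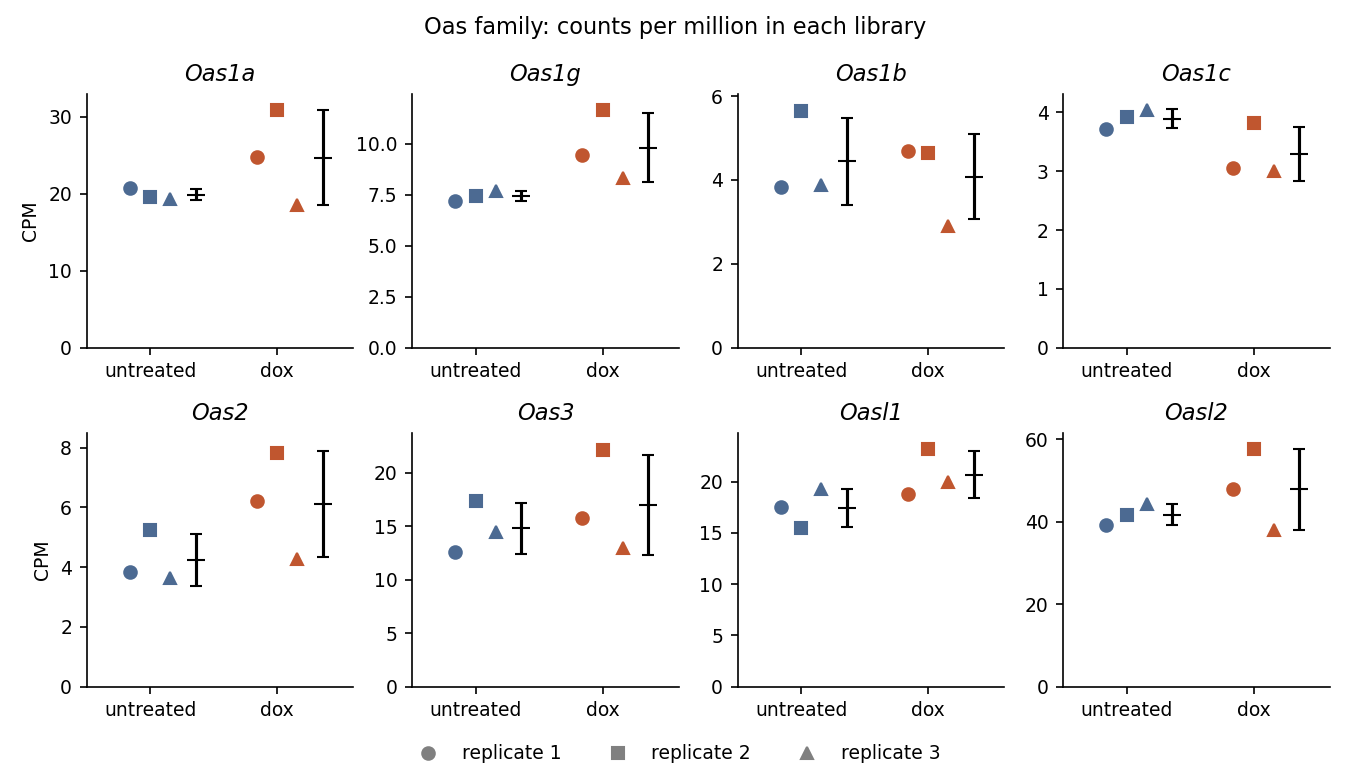
CPM of the 8 Oas genes in each library (blue, untreated; orange, doxycycline; circle, square and triangle for replicates 1, 2 and 3), with the mean and SD of each group (n = 3) beside the points and axes starting at 0. The square of doxycycline replicate 2 is the highest point for 6 genes, and groups do not overlap for Oas1g alone.

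Per length, the order of the genes differed from that by CPM. Levels were expressed as CPM per kilobase of exon (RPKM), with the union of GENCODE M21 exons as length, and averaged over all 6 libraries. Oas1a was highest at 11.8 ± 2.50 RPKM (SD, n = 6). Oasl1 at 7.31 ± 0.987 and Oasl2 at 7.03 ± 1.14 RPKM overlapped. Oas1g followed at 3.69 ± 0.720 RPKM, then Oas3 at 2.25 ± 0.4997, Oas1b at 2.14 ± 0.472, Oas1c at 1.49 ± 0.187 and Oas2 at 1.16 ± 0.363 RPKM. By mean and SD, Oas3 and Oas1b overlapped, as did Oas1b and Oas1c, and Oas1c and Oas2. The lowest library of Oas1g, at 3.085 RPKM, also lay below the highest of Oas3, at 3.13 RPKM. The order depended on the length used. With the longest transcript of each gene in place of the exon union, Oasl2 came first at 14.4 RPKM, ahead of Oas1a at 11.8 and Oasl1 at 8.75 RPKM, because the exon union of Oasl2 is 6374 bases and its longest transcript 3123.

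Summed over the 8 members, levels were 109, 116 and 117 CPM in untreated libraries and 131, 162 and 108 CPM in doxycycline libraries, so the groups overlapped. Oasl2 made up between 35.1 and 38.1% of this sum of reads in every library. Oas1g took 6.41 to 6.64% in untreated and 7.20 to 7.72% in doxycycline libraries, and Oas1c took 3.37 to 3.46% and 2.34 to 2.78%. For these genes the shares of the groups did not overlap. These shares were chosen after the values were seen and are given without a test.

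Doxycycline replicate 2 stood out for most members. It was the highest of the 6 libraries for 6 of 8 members, beside 22.2% of all tested genes, and the exceptions were Oas1b and Oas1c. On the log2 CPM scale it lay above the mean of the other 5 libraries by 0.77 for Oas2, 0.61 for Oas3, 0.59 for Oas1a, 0.54 for Oas1g, 0.46 for Oasl2 and 0.35 for Oasl1. For Oas1b and Oas1c the difference was 0.19 and 0.12. It exceeded 0.5 for 4 of 8 members, beside 2.97% of all tested genes. These counts were chosen after the values were seen and are given without a test. Replicate 2 had 41264244 counts, fewer than untreated replicate 1, and its summed leukocyte markers were within the untreated range. Among those markers Csf1r was highest there, with 27 counts against 8 to 15 elsewhere. Ptprc was lowest there, with 4 counts against 5 to 21 elsewhere. Cd68, at 10.6 CPM, lay within its untreated range, and Itgam, with 4 counts, was level with untreated replicate 1. The part of the library total or of these markers in this pattern was not tested.

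**Figure D3:**
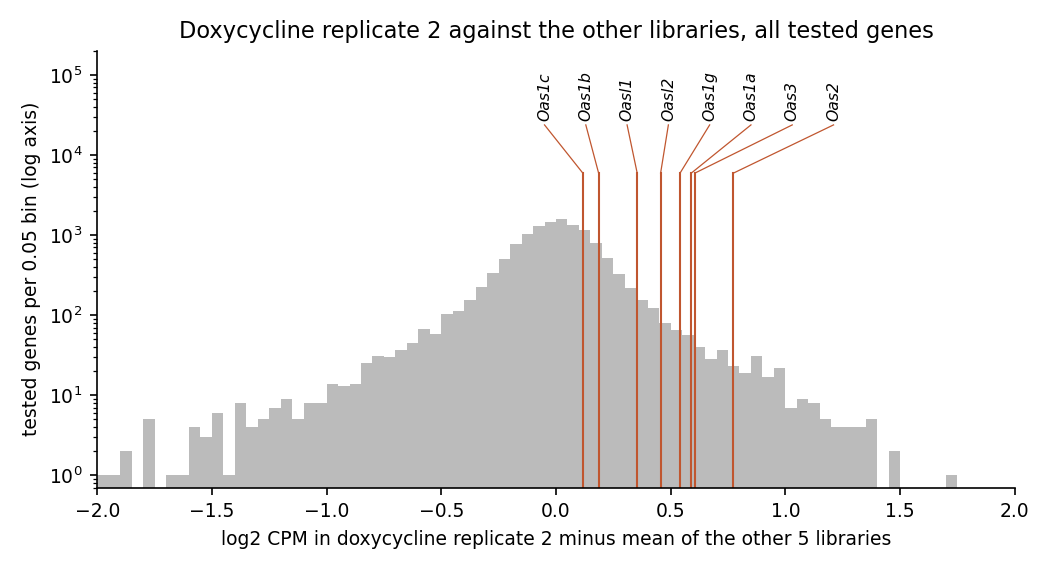
Log2 CPM in doxycycline replicate 2 minus the mean of the other 5 libraries for the 13084 tested genes (grey, counts of genes per bin of 0.05 on a log axis; 8 genes lie outside the plotted range), with the 8 Oas genes as orange lines. Oas1c at 0.12 and Oas1b at 0.19 lie near the bulk of genes, and Oas2 lies farthest out at 0.77.

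Leaving out a single doxycycline library moved the family in either direction. Replicate 2 was the highest doxycycline library for every member except Oas1b, so leaving it out lowers their fold changes by construction. Without doxycycline replicate 2, the median log2 fold change of the 8 members was 0.076, and 5 were above 0 and 3 below. An unadjusted p under 0.05 was reached by 0 members. In that fit 0 members were called, beside 756 of 13237 tested genes. Replicate 3 was the lowest doxycycline library for 7 members, so leaving it out raises their fold changes by construction. Without doxycycline replicate 3, the median was 0.35 and 7 were above 0. Beside 215 of 13225 tested genes, 3 members passed the threshold. These were Oas1a (0.49, edgeR adjusted p = 0.0123), Oas2 (0.74, edgeR adjusted p = 0.0484) and Oasl2 (0.34, edgeR adjusted p = 0.0468), each from 3 untreated and 2 doxycycline libraries. The fitted variation of every member was also above the median of all tested genes. Neither this comparison nor the percentiles below were matched for expression level. The biological coefficient of variation was 7.57% for Oasl1 and 9.45 to 15.2% for the others, beside a median of 6.32% over all tested genes. Within the doxycycline group the SD of log2 CPM of the members lay between percentile 69.6 (Oasl1) and 93.2 (Oas2) of all tested genes. Within the untreated group it ranged more widely. Oas1g, Oas1a, Oas1c and Oasl2 lay at percentiles 26.5, 32.3, 38.6 and 55.8, and Oasl1, Oas3, Oas2 and Oas1b at 75.2, 83.8, 87.5 and 89.0. Oasl1 was the member with a higher percentile in untreated than in doxycycline libraries.

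**Figure D4:**
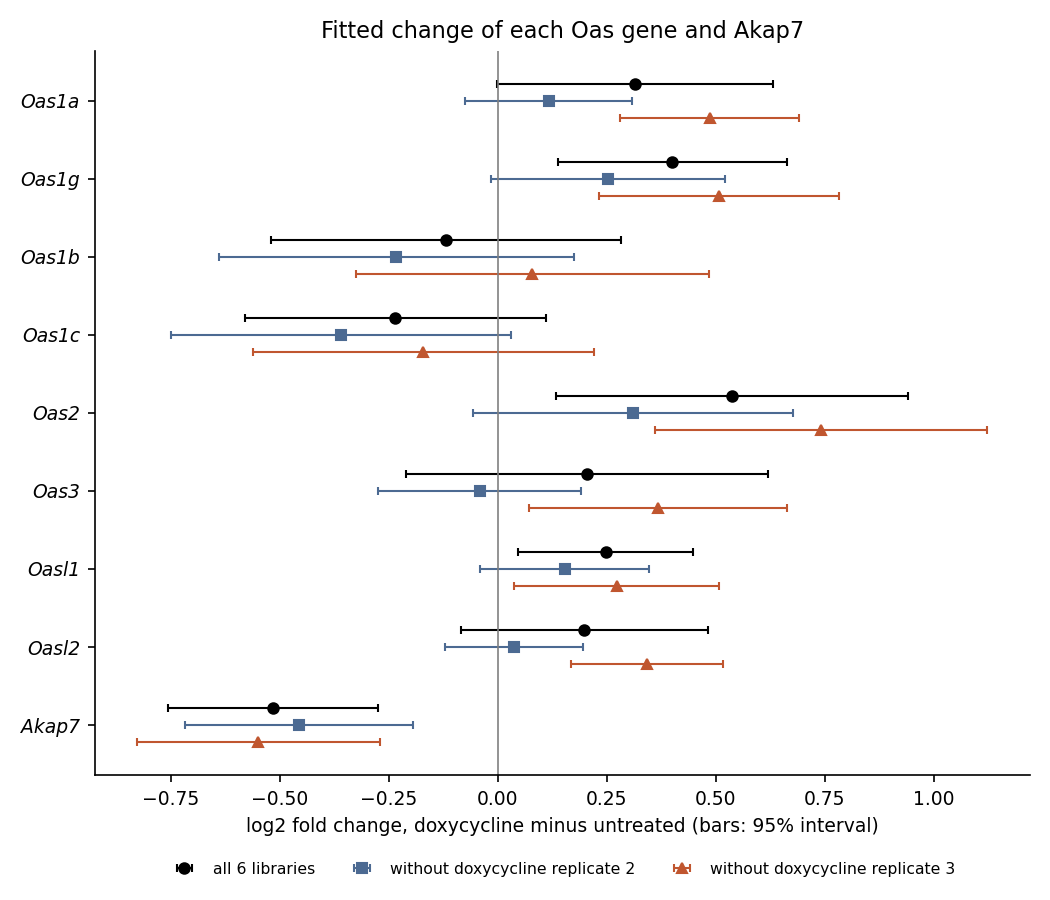
Fitted log2 fold change, doxycycline minus untreated, of the 8 Oas genes and Akap7 with 95% intervals from edgeR, for all 6 libraries (black circles), without doxycycline replicate 2 (blue squares) and without doxycycline replicate 3 (orange triangles). Estimates of the Oas genes shift left without replicate 2 and right without replicate 3, whereas Akap7 stays between -0.46 and -0.55.

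Of 4 listed genes of the 2-5A pathway, 1 was called lower and 0 higher, beside 283 lower and 121 higher of 13084 tested genes. Akap7, which carries a 2′-5′ phosphodiesterase domain that degrades 2-5A, had 9.50, 10.6 and 9.61 CPM in untreated and 7.20, 6.37 and 7.24 CPM in doxycycline libraries. The groups did not overlap, and replicate 2 was the lowest of all libraries. It fell by 0.52 on the log2 scale with an SE of 0.12 (edgeR adjusted p = 0.0132), and the call was lost without untreated replicate 2 (adjusted p = 0.0933) or untreated replicate 3 (adjusted p = 0.0582). Abce1, an ATP-binding protein, and Pde12, another 2-5A phosphodiesterase, each had a log2 fold change of 0.08 and did not pass the test, except for Abce1 without doxycycline replicate 2 (0.13, edgeR adjusted p = 0.0179).

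Upstream of the Oas genes, 0 of 10 tested genes of interferon receptors, STATs and IRFs were called, beside 3.09% of all tested genes. The median log2 fold change of this list was 0.011. The counts of Ifnb1, which encodes interferon beta, were 4, 0 and 2 in untreated and 2, 0 and 0 in doxycycline libraries, too few to test. Stat2 and Irf9 act together in the response to type I interferon. Stat2 stood 0.17 higher on the log2 scale with an SE of 0.085 (edgeR adjusted p = 0.342), and Irf9 stood 0.14 higher with an SE of 0.068 (edgeR adjusted p = 0.31), neither past the threshold. For Irf9 the doxycycline values of 32.7, 32.8 and 31.0 CPM all lay above the untreated values of 30.3, 28.2 and 29.0 CPM. Groups did not overlap for 3 of 10 tested genes of this list, beside 21.3% of all tested genes. The others, Ifnar2 and Irf1, were lower with doxycycline.

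Irf7, the target of Oasl1, measured 11.9, 15.2 and 14.0 CPM untreated and 16.2, 22.7 and 12.9 CPM with doxycycline. Doxycycline replicate 2 was again the highest library, and the groups overlapped (log2 fold change 0.34, SE 0.18, edgeR adjusted p = 0.403). It passed only with no filter (edgeR adjusted p = 0.0332). Irf1, a factor induced by interferon gamma, had the smallest unadjusted p of the list, with 34.3 ± 1.24 CPM untreated and 29.7 ± 1.67 CPM with doxycycline (SD, n = 3 each). Its log2 fold change of -0.21 (SE 0.069) did not pass the threshold (edgeR adjusted p = 0.121), except without doxycycline replicate 2 (0.0305).

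Among 8 other sensors and editors of double-stranded RNA, 0 were called, beside 3.09% of all tested genes. Their median log2 fold change was 0.04. As in the Oas family, doxycycline replicate 2 was the highest library for 6 of 8, beside 22.2% of all tested genes. Replicate 3 was the lowest of all 6 libraries for 5 of 8. That held for 4 of 8 Oas genes and for 2028 of 13084 tested genes. Eif2ak2, the kinase PKR, had the smallest unadjusted p, with 122 ± 3.14 CPM untreated and 132 ± 9.50 CPM with doxycycline (log2 fold change 0.11, SE 0.053, edgeR adjusted p = 0.324). Tlr3, the endosomal receptor, had 46.9 ± 3.17 and 43.1 ± 2.72 CPM (SD, n = 3 each, log2 fold change -0.12, edgeR adjusted p = 0.395).

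The genes whose 6-library profile was most like that of Oasl2 were ranked by the root mean square difference of log2 CPM after centring each gene on its mean, over 11656 tested genes of at least 1 CPM. The 10 likest were Xaf1, Ifi27l2a, Ifi44, Trim43c, Trim30a, Fars2, Ddx60, Bsn, Mir3068 and Apol9a, with differences from 0.056 for Xaf1 to 0.087 for Apol9a, beside a median of 0.23 over all compared genes. Xaf1, Ifi27l2a, Ifi44, Trim30a and Ddx60 are known interferon-stimulated genes. Apol9a is also one of the genes whose promoter window held the 16-base block. None of the 10 passed the threshold, with edgeR adjusted p from 0.262 to 0.855. Within the family, Oas1a ranked 26, Oas1g 57, Oas3 224 and Oasl1 681, while Oas1c ranked 6549, Oas2 8016 and Oas1b 8723. A gene with equal values in all libraries would differ from Oasl2 by 0.20 on this measure. Oas2, at 0.25, exceeded that although doxycycline replicate 2 was its highest library too, and the measure counts a difference in the size of the swings as well as in their order. A profile over 6 libraries is a description and has no test.

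The genes that flank the clusters had low or different values. Next to Oasl1, 2210016L21Rik had 16.5 ± 0.757 CPM untreated and 14.5 ± 1.26 CPM with doxycycline (SD, n = 3 each, log2 fold change -0.18, edgeR adjusted p = 0.336), and its highest library was untreated replicate 2. The gene on the other side of Oasl2, 4930519G04Rik, and those beside the larger cluster, Dtx1 and Rph3a, had at most 4 counts in any library.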

How the data were processed

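Total RNA of 4T1-tetL1(GLucAI) cells was sequenced in 3 untreated and 3 doxycycline libraries, grouped by their titles. According to the submitters' processing notes and the study's methods, the authors demultiplexed with bcl2fastq 2.20, aligned with STAR to GRCm38 (mm10) and counted with featureCounts of Subread 1.6.2. The deposited table holds raw read counts for each gene, one column a library, without normalization. The strand setting and the treatment of reads that fit several genes are not given in the sources used here. All columns were matched to samples, with 0 left unmatched. Nothing further says that cultures were separate, so p-values measure the spread between these libraries. Replicate pairs differed by more than sampling noise (chi-square per degree of freedom 6.14 to 22.1).

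The main test was edgeR 4.0.16 (quasi-likelihood, robust, TMM, filterByExpr) in R 4.3.3 over all tested genes, Benjamini-Hochberg adjusted at 0.05 and modelled on group alone, where the study used DESeq2. SE was the absolute log2 fold change over the square root of F. Log2 CPM used a prior count of 2. The script was tested on simulated data. Alternatives were other scalings, no filter, a floor of 10 counts in all libraries, a replicate block, DESeq2 1.42.0, limma voom (limma 3.58.1), leaving out each library, another gene length and a prior count of 0.5. Same-numbered libraries of the groups did not deviate together (r from -0.0399 to 0.0176), so numbers were not taken as pairs.

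The members and gene lists were chosen with earlier results of these data known. The genes named are the 8 members, from each list those called or otherwise the 2 of smallest unadjusted p, a fixed set (Stat2, Irf9, Irf7, Ifnb1 and others not reported here), the 10 profiles most like the member of highest mean CPM, and the flanking genes. Abce1, Pde12, Ifnar2, Apol9b and the markers were added for context. Sequences were read from GENCODE M21 and RefSeq tables of GRCm38 with Biopython 1.88. Protein sequences were not used here.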

Additional observations from a re-analysis of the deposited data

How the results depend on the processing

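The count of Oas genes past the threshold was 0 with all libraries and remained 0 under each scaling, the stricter filter, the replicate block, DESeq2 and limma voom. It was 3 with no filter, for Oas1a (0.311), Oas1g (0.397) and Oas2 (0.535 on the log2 scale), and lay between 0 and 3 when single libraries were left out. Over those leave-one-out fits the log2 fold change ran from 0.12 to 0.49 for Oas1a, from 0.25 to 0.51 for Oas1g, from 0.31 to 0.74 for Oas2, from 0.036 to 0.34 for Oasl2, from 0.15 to 0.32 for Oasl1, from -0.36 to -0.17 for Oas1c, from -0.23 to 0.082 for Oas1b and from -0.042 to 0.37 for Oas3. Oas1b reversed without untreated replicate 2 (0.082) and without doxycycline replicate 3 (0.079), and Oas3 without doxycycline replicate 2 (-0.042). Over all genes, 404 calls became 649 with no filter and 160 to 756 when single libraries were left out. The listed pathway genes gave 1 call, 2 with no filter (Akap7 and Irf7), and 0 to 3 when single libraries were left out. With no filter 17661 genes were tested, and the cause of these shifts was not tested. With the replicate block 418 genes were called, the smallest adjusted p among the Oas genes was 0.0615, and no call on an Oas or listed gene changed. The ranking of profiles shared 10 of 10 genes with a prior count of 0.5. Coefficients of variation reached 15.2% among members. The 95% intervals of Oas1g, Oas2 and Oasl1 left out 0, but their adjusted p missed the threshold. Counts of Oas1a and Oas1g cannot be separated fully.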
